A study of Mus musculus with 12 samples.

Results

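The 9 genes described here encode proteins that fasten basal keratinocytes to the basement membrane of the skin: Itga6, Itgb4, Col17a1, Dst and Plec of the hemidesmosome, Lama3 and Lamb3 of laminin-332, and Itga3 and Itgb1 of a further integrin that binds it. They were taken by symbol from tables of 23282 entries, in which each of the 9 symbols stood once, and all 9 were among the 14163 entries with enough reads to be tested. Skin RNA of 12 wild-type male C57BL/6J mice, 5 weeks old on arrival, was sequenced from the 3′ ends of transcripts, each mouse giving 1 library. The 5 AD mice were fed normal chow, and the 7 HF + AD mice were fed a diet with 60% of its energy from fat for 4 weeks before sensitization and then to the end, 10 weeks in all. In both groups 0.5% DNCB, a contact sensitizer that gives atopic dermatitis-like lesions, was put on the back skin 3 times a week for 6 weeks, and both groups were given distilled water, so that every mouse compared here was sensitized and the groups differed in diet. DNCB was dissolved in acetone and olive oil. The comparison asks how skin gene expression differs when mice made obese by a high-fat diet are given the same DNCB treatment. Skin without DNCB was not analysed here, so no value below says how far any gene stood from healthy skin.

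A hemidesmosome joins the keratin filaments inside a basal keratinocyte to the matrix beneath it. Plakin proteins hold the filaments on the inner side, an integrin and a transmembrane collagen cross the membrane, and laminin-332 receives them in the basement membrane, where anchoring fibrils of type VII collagen tie it to the dermis. Inherited loss of several of these proteins causes the blistering skin disease epidermolysis bullosa, and autoantibodies to some of them cause pemphigoid.

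Promoter sequences of RefSeq (GRCm38, 250 bases before a transcript start) were found for 5 of the 9 genes, Dst, Lamb3, Itgb1, Itga3 and Col17a1. They are shown for Itgb1, the gene of these 5 that passed the test below, and for Col17a1, whose estimate lay nearest to 0, because these promoters differ in their content of CG dinucleotides, written in capitals. The Itgb1 sequence is chr8:128685404-128685653 on the plus strand, and the Col17a1 sequence is chr19:47692095-47692292 on the minus strand, shortened by the 52 bases that lie within the annotated gene. Both read 5′ to 3′ toward the gene.
Itgb1 promoter: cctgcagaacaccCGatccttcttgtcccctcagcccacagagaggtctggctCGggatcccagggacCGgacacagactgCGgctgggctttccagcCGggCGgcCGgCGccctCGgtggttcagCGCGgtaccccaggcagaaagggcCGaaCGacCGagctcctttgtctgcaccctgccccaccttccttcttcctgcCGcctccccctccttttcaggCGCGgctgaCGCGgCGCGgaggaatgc
Col17a1 promoter: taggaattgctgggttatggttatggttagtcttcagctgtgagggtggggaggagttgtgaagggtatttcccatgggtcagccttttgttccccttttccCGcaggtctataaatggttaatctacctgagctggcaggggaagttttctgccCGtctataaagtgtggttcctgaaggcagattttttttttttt
The Itgb1 promoter held 21 CG dinucleotides, and 16.3% of 32851 promoters of 250 bases held at least as many. The Col17a1 promoter held 2, and 29.0% of promoters held at most that number, against a median of 6. Among the other genes, which did not pass, Dst and Itga3 each had a promoter with 22 and another with 5. The promoters of Lamb3 held 2 and 3. A link between CG content and the calls was not tested. The GC box GGGCGG, searched on both strands, occurred 1 time in the 250 bases of Itgb1 and 0 times in those of Col17a1, while 32.7% of all promoters held it. These counts describe the letters of the windows and no binding was measured.

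Total counts per mouse lay between 9746937 and 11688979 in AD and between 10726845 and 13462434 in HF + AD, and a count of 0 allows up to 0.223 to 0.308 counts per 1000000 (CPM) per library. The number of genes with at least 1 count was 13100 to 15063 in AD and 15522 to 16677 in HF + AD, so these ranges did not overlap. Basal keratinocyte markers were present in every library: Krt5 and Krt14, the keratins of the basal layer, lay at 2232 to 3806 and 544 to 1277 CPM in AD and at 4043 to 6642 and 842 to 3020 CPM in HF + AD. Both rose, Krt5 by a log2 fold change of 0.81 ± 0.15 (SE, edgeR adjusted p = 0.00679) and Krt14 by 1.05 ± 0.27 (SE, edgeR adjusted p = 0.0248), the latter lost in 4 of 21 alternative analyses.

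Of the 9 genes, Plec and Itgb1 rose in HF + AD mice, none fell, and 7 did not pass the test. Plec was 2.31-fold higher and Itgb1 1.47-fold higher. The estimates for the integrin chain genes Itga6 and Itgb4, the transmembrane collagen gene Col17a1 and the plakin gene Dst lay between -0.16 and 0.39 on the log2 scale. Of the other genes that did not pass, Itga3 had 0.31 and Lamb3 -0.24. Lama3 had 0.68, above the 0.55 of Itgb1. The 2 called genes are 22.2% of the 9, against 9.2% of all genes tested in either direction, 4.43% called higher and 4.77% called lower. Calls rest on edgeR's quasi-likelihood test with an adjusted p under 0.05 over all genes tested. The median log2 fold change of the 9 genes was 0.31, and that of all genes tested was 0.023. In RNA of whole skin, more or fewer cells of a type and more or less RNA per cell cannot be told apart.

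**Figure D1:**
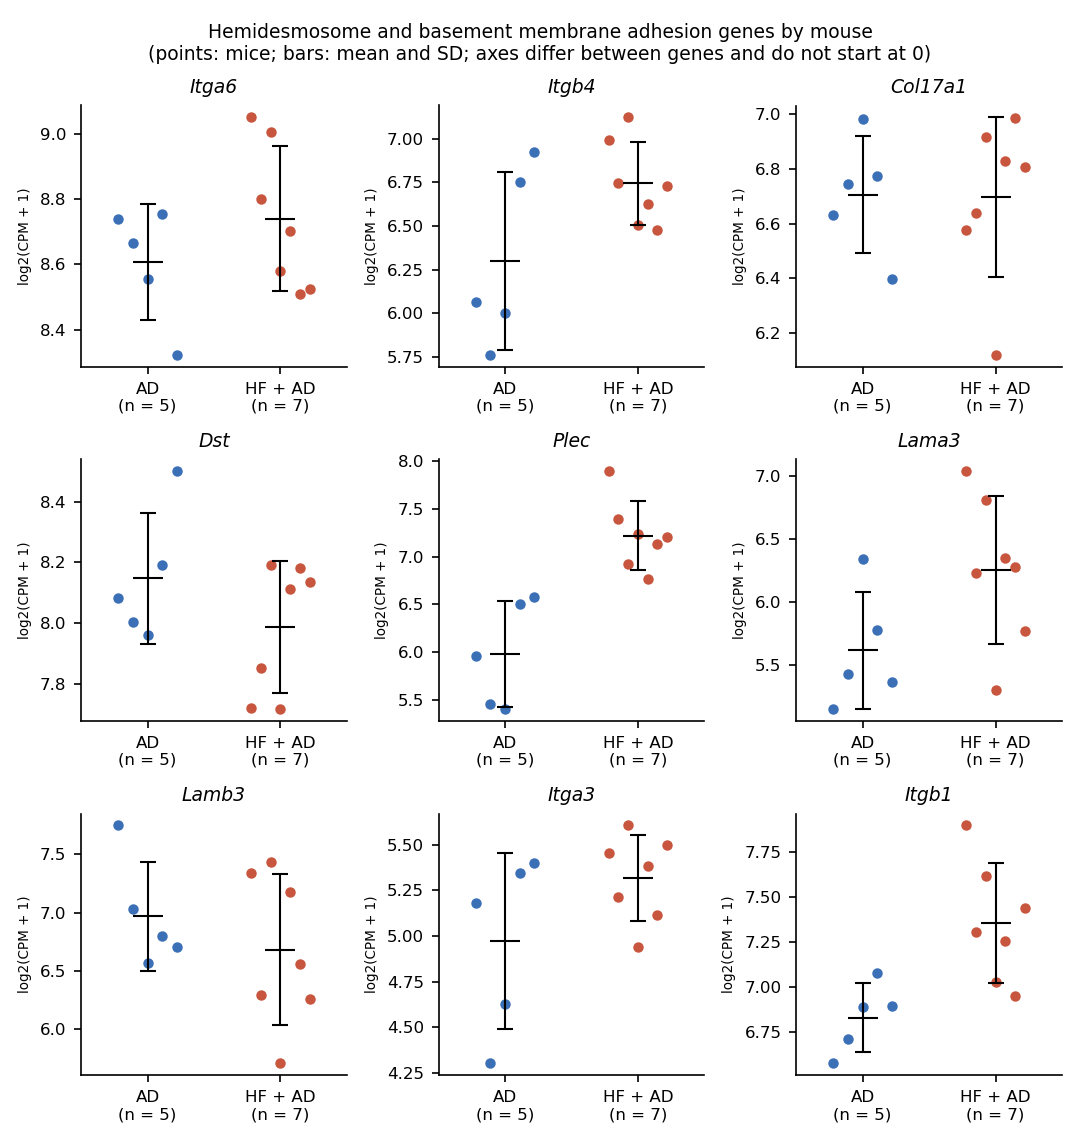
Levels of the 9 genes in every mouse as log2(CPM + 1), with AD (n = 5, blue) beside HF + AD (n = 7, red); points are mice, and bars are the mean and SD. The axes differ between genes and do not start at 0. For Plec every HF + AD mouse lies above every AD mouse, for Itgb1 5 of 7 do, and for the other genes the groups overlap more.

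Plec encodes plectin, the plakin that links keratin filaments to the integrin β4 tail. It was counted at 61.4, 42.8, 41.3, 90.0 and 94.6 CPM in the 5 AD mice, and at 107 to 237 CPM with a median of 147 in the HF + AD mice. All 7 HF + AD mice stood above the highest AD mouse, and within AD a pair of mice stood well above the other three. Plec was the only one of the 9 genes whose groups did not overlap, as was true of 5.57% of the 13200 genes with a mean count of at least 20. The log2 fold change was 1.21 with a 95% interval of 0.71 to 1.71 (SE 0.24, edgeR adjusted p = 0.00822), which ranked 151st by p among all genes tested, and the call was kept in 21 of 21 alternative analyses. The level rose from 5.98 ± 0.56 (SD, n = 5) to 7.22 ± 0.36 (SD, n = 7) in log2(CPM + 1), and the two-sided exact permutation p of 0.00126 is the smallest that 792 assignments of 12 mice allow. Plec lies on chromosome 15 (76170974 to 76232574, minus strand, GRCm38) and has 21 annotated protein-coding transcripts with 8 distinct 3′ ends, which a count per symbol adds together. Its longest transcript holds 61.3% G and C, among the 2725 genes of highest GC content, where 187 genes were called higher and 57 lower, while among the 2725 of lowest GC content 72 were called higher and 206 lower. With counts corrected for GC content the log2 fold change of Plec was 0.94 (edgeR adjusted p = 0.00893).

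Dst encodes dystonin, whose epithelial form BP230 is the other plakin of the hemidesmosome. It was counted at 270, 255, 248, 291 and 361 CPM in AD and at 209 to 292 CPM with a median of 276 in HF + AD. The groups overlapped, and 3 of 7 HF + AD mice stood below the lowest AD mouse. Its log2 fold change was -0.16 with a 95% interval of -0.45 to 0.13 (edgeR adjusted p = 0.508). Dst (chromosome 1, 33908225 to 34308661, plus strand) has 14 protein-coding transcripts with 13 distinct 3′ ends, so the epithelial, neuronal and muscle forms cannot be told apart in these counts.

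Itga6 and Itgb4 encode the chains of integrin α6β4, the laminin receptor of the hemidesmosome. Itga6 was counted at 426, 405, 375, 431 and 319 CPM in AD and at 364 to 529 CPM with a median of 416 in HF + AD, and Itgb4 at 65.8, 53.2, 63.0, 107 and 120 CPM in AD and at 88.2 to 138 CPM with a median of 105 in HF + AD. The groups overlapped for both genes. For Itgb4, 3 of 5 AD mice stood below every HF + AD mouse and the other two stood inside the HF + AD range. The log2 fold change was 0.14 for Itga6 (95% interval -0.14 to 0.42, edgeR adjusted p = 0.564) and 0.39 for Itgb4 (95% interval -0.031 to 0.82, edgeR adjusted p = 0.236). With counts corrected for GC content the estimate for Itgb4, also among the genes of highest GC content, was 0.14. Itga6 lies on chromosome 2 (71745616 to 71858416, plus strand) and Itgb4 on chromosome 11 (115974709 to 116008412, plus strand).

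Col17a1 encodes type XVII collagen (BP180), which crosses the membrane beside the integrin. It was counted at 98.2, 106, 126, 108 and 83.3 CPM in AD and at 68.5 to 126 CPM with a median of 111 in HF + AD. All 5 AD values lay inside the HF + AD range. Its log2 fold change was 0.0010 with a 95% interval of -0.33 to 0.33 (edgeR adjusted p = 0.998), and its sign turned between alternative analyses, with -0.24 after correction for GC content. Col17a1 lies on chromosome 19 (47646344 to 47692094, minus strand).

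Itgb1 encodes the β1 chain and Itga3 the α3 chain of integrin α3β1, which binds laminin-332 outside hemidesmosomes, and the β1 chain also pairs with many other α chains on many cell types. Itgb1 was counted at 94.4, 104, 117, 134 and 118 CPM in AD and at 122 to 237 CPM with a median of 157 in HF + AD. Of 7 HF + AD mice, 5 stood above the highest AD mouse, and the other two stood between the highest and the second-highest AD mouse. The log2 fold change was 0.55 with a 95% interval of 0.21 to 0.90 (SE 0.16, edgeR adjusted p = 0.0446), and the exact permutation p for the level was 0.0101, with means of 6.83 ± 0.19 (SD, n = 5) and 7.35 ± 0.33 (SD, n = 7). The call stood in 12 of 21 alternative analyses, with adjusted p from edgeR, limma or DESeq2 between 0.0177 and 0.127, and was lost when AD mouse 1, 2, 3 or 5, or mouse 1, 2, 3 or 7 of the HF + AD group, was left out (edgeR adjusted p 0.0580 to 0.0921). Itgb1 (chromosome 8, 128685654 to 128733200, plus strand) holds 44.8% G and C in its longest transcript.

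Itga3 was counted at 35.3, 18.7, 23.7, 39.7 and 41.2 CPM in AD and at 29.7 to 47.8 CPM with a median of 40.8 in HF + AD. AD mice 2 and 3 were the lowest of all 12, and the other three AD mice stood among the HF + AD mice. For Itga3 the log2 fold change was 0.31 with a 95% interval of -0.14 to 0.76 (edgeR adjusted p = 0.399), and it was 0.10 with counts corrected for GC content. Itga3 lies on chromosome 11 (95044474 to 95076801, minus strand).

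**Figure D2:**
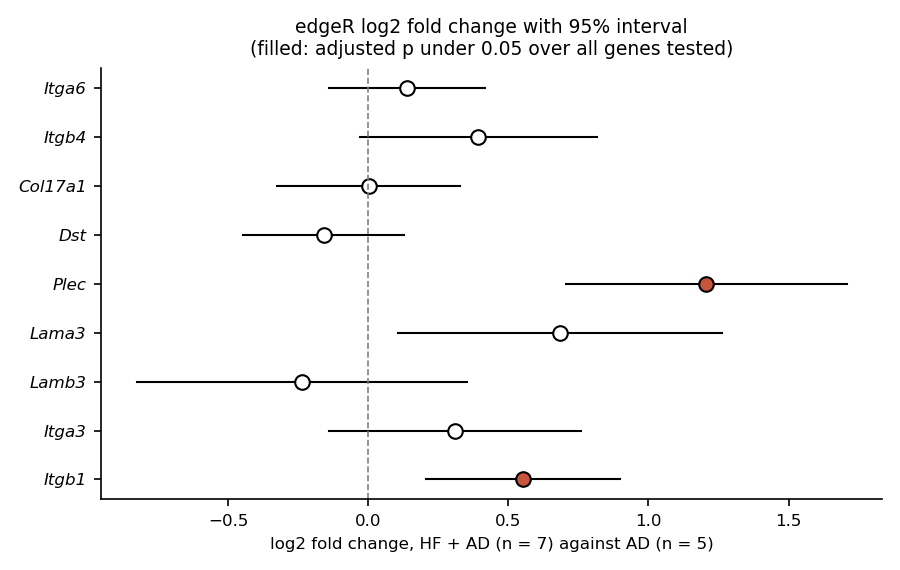
Log2 fold change of the 9 genes in HF + AD (n = 7) against AD (n = 5) from the edgeR fit, with bars for the 95% interval; filled points have an adjusted p under 0.05 over all genes tested. Only the points of Plec (1.21) and Itgb1 (0.55) are filled, and the interval of Lama3 (0.11 to 1.26) also lies above 0.

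Lama3 and Lamb3 encode the α3 and β3 chains of laminin-332. Lama3 was counted at 34.6, 42.1, 80.3, 53.9 and 40.3 CPM in AD and at 38.5 to 130 CPM with a median of 76.8 in HF + AD, and Lamb3 at 214, 130, 93.9, 110 and 103 CPM in AD and at 51.3 to 172 CPM with a median of 93.5 in HF + AD. The estimates differed in sign, with 3 of 7 mice on the high-fat diet above every chow-fed mouse for Lama3 and 4 of 7 below every chow-fed mouse for Lamb3. In each count 1 mouse barely cleared AD mouse 3. These were HF + AD mouse 5 for Lama3 (80.4 against 80.3 CPM) and HF + AD mouse 6 for Lamb3 (93.5 against 93.9 CPM). The log2 fold change was 0.68 for Lama3 (95% interval 0.11 to 1.26, unadjusted p = 0.0228, edgeR adjusted p = 0.125) and -0.24 for Lamb3 (95% interval -0.83 to 0.35, edgeR adjusted p = 0.658). Neither passed the adjusted test, in the edgeR fit or in any of 21 alternative analyses. An unadjusted p under 0.05 was found for 25.1% of all genes tested. AD mouse 1 held the highest Lamb3 level in CPM of all 12 mice, and without it the log2 fold change of Lamb3 was 0.022, while with counts corrected for GC content it was -0.43.

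The ratio of partner chains within a mouse does not depend on the scaling between libraries, and it is given as values with no test because these pairs were chosen after the levels had been seen. Plec to Dst lay between -2.59 and -1.69 on the log2 scale in AD (mean -2.19, SD 0.39, n = 5) and between -1.36 and 0.18 in HF + AD (mean -0.77, SD 0.54, n = 7), so that every HF + AD mouse stood above the AD range. In the other pairs the groups overlapped. Lama3 to Lamb3 lay between -2.63 and -0.23 in AD and between -0.84 and -0.062 in HF + AD. Itga6 to Itgb4 lay between 1.40 and 2.93 in AD and in the narrower span of 1.81 to 2.09 in HF + AD. Reads were counted at transcript ends, whose capture can differ between genes, so a ratio is read between mice and not as a number of chains. The ratios were not corrected for GC content, which is 61.3% in the longest transcript of Plec and 49.5% in that of Dst.

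**Figure D3:**
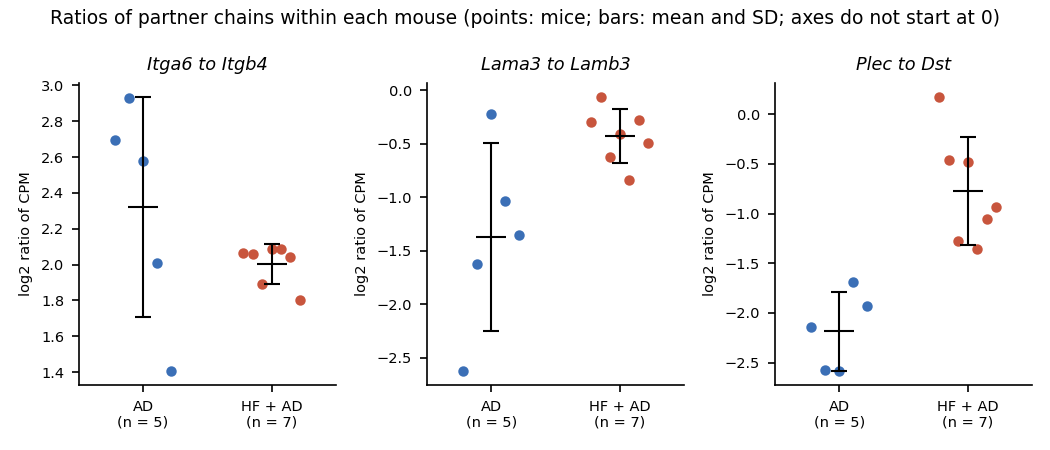
Log2 ratio of the CPM of partner chains within each mouse, with AD (n = 5, blue) beside HF + AD (n = 7, red); points are mice, bars are the mean and SD, and the axes do not start at 0. The groups are apart for Plec to Dst, with HF + AD above, and overlap for Itga6 to Itgb4 and for Lama3 to Lamb3.

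Hemidesmosomes are built by basal keratinocytes, whose keratin mRNAs rose, so each gene was also set against the sum of Krt5 and Krt14 in the same library. On this scale, log2 of (gene CPM + 1) over (Krt5 + Krt14 CPM), 8 of 9 genes had a lower mean in HF + AD and Plec had a higher one. Dst went from -3.65 ± 0.16 (SD, n = 5) to -4.67 ± 0.41 (SD, n = 7), with all 7 HF + AD mice below all AD mice (difference -1.02, exact permutation p = 0.00126, the smallest possible). Lamb3 differed by -1.15 (exact permutation p = 0.00379, 6 of 7 mice below all AD mice), Col17a1 by -0.87 (exact permutation p = 0.00631), Itga6 by -0.73 (exact permutation p = 0.00505) and Itga3 by -0.51 (exact permutation p = 0.0139). Itgb4 differed by -0.42 (exact permutation p = 0.0669), Itgb1 by -0.33 (exact permutation p = 0.104), Lama3 by -0.22 (exact permutation p = 0.528) and Plec by 0.38 (exact permutation p = 0.0859), and none of these passed. The 9 values share 1 denominator that itself rose. A gene whose own level was flat therefore lies lower on this scale, as Col17a1 did with a difference in level of -0.010. The levels of Dst, Lamb3, Col17a1, Itga6 and Itga3 alone did not pass (exact permutation p = 0.231, 0.414, 0.960, 0.297 and 0.129). Their small p-values on this scale thus include the rise of the keratins. Values on this scale were not corrected for GC content. With counts so corrected the log2 fold change was 0.57 for Krt5 and 0.81 for Krt14. The 9 values are not independent of each other, and their p-values are two-sided and not adjusted. Other basal markers did not move with the keratins alike: Krt15 rose (log2 fold change 1.21, edgeR adjusted p = 0.0151), while Trp63, the transcription factor of basal cells, had -0.29 (edgeR adjusted p = 0.331) and Cdh3, encoding P-cadherin, had -0.41 (edgeR adjusted p = 0.177).

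**Figure D4:**
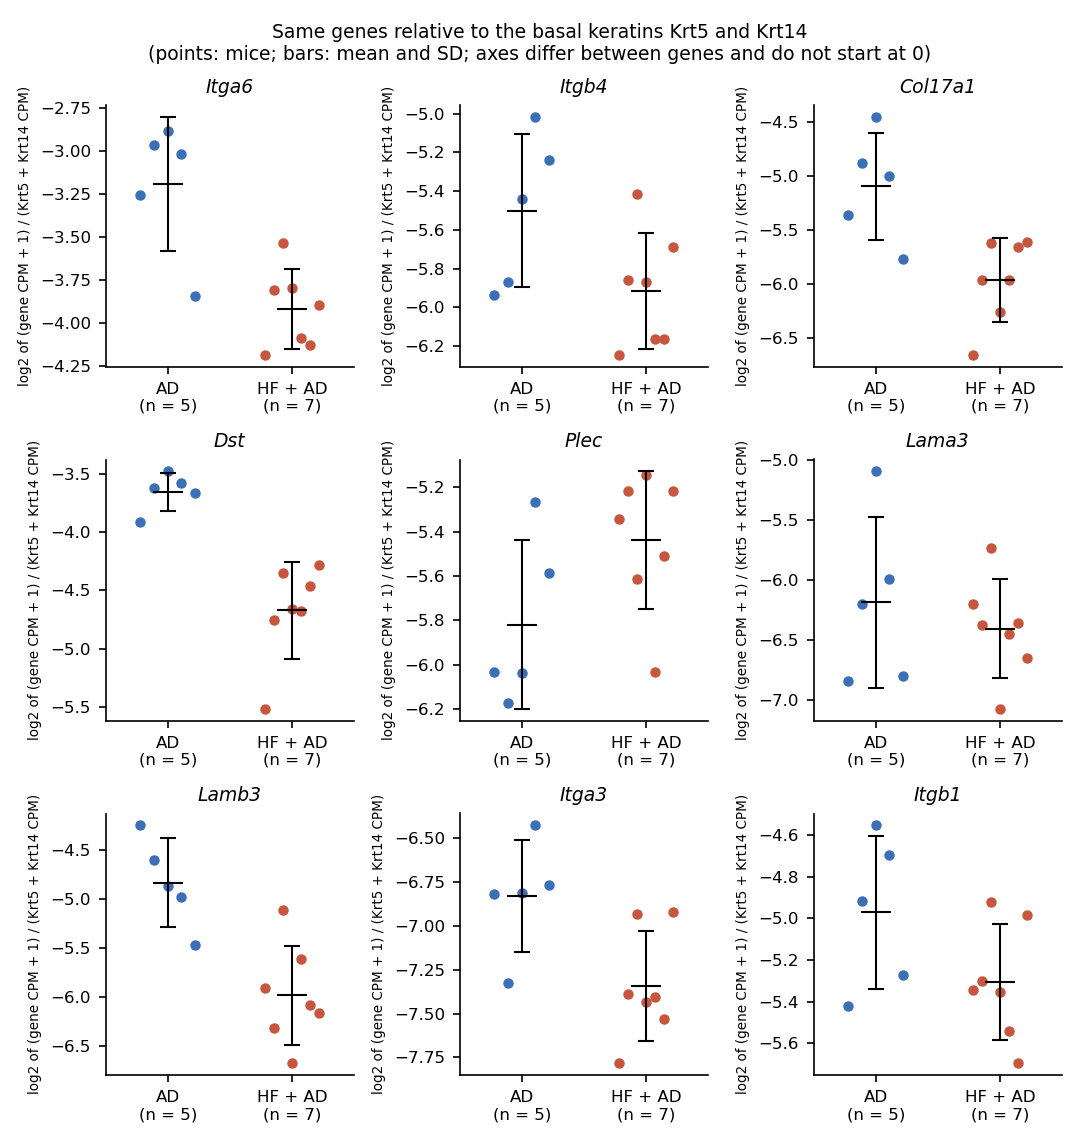
The same 9 genes relative to the basal keratins, as log2 of (gene CPM + 1) over (Krt5 + Krt14 CPM), with AD (n = 5, blue) beside HF + AD (n = 7, red); points are mice, bars are the mean and SD, and the axes do not start at 0. Dst is lower in every HF + AD mouse than in any AD mouse, and Plec is the only gene whose HF + AD mean is the higher. The shared denominator itself rose in HF + AD, and the level of Dst alone overlapped between the groups.

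Of 20 tested genes for other basement membrane components, 5 rose and 0 fell, with a median log2 fold change of 0.60. The called genes are 25% of the 20, against 4.43% of all genes tested called higher and 4.77% called lower. The calls of this list were not counted with correction for GC content. The 5 were Col4a2, a chain of type IV collagen (1.22, edgeR adjusted p = 0.00833), Hspg2 for perlecan (1.14, edgeR adjusted p = 0.0165), Lamb2 for the laminin β2 chain (0.92, edgeR adjusted p = 0.0228), Col18a1 for type XVIII collagen (0.65, edgeR adjusted p = 0.0273) and Dag1 for the laminin receptor dystroglycan (0.68, edgeR adjusted p = 0.0335). Lamb2 lay at 16.2 to 46.4 CPM in AD and at 46.7 to 77.3 CPM in HF + AD, without overlap, and without 1 library the number of called components fell to 3 at the least. These components are also made by fibroblasts, endothelium and nerve sheath. Of 6 endothelial markers Cdh5 (1.56, edgeR adjusted p = 0.0284) and Kdr (1.06, edgeR adjusted p = 0.0243) rose, while 3 had estimates below 0, the list median was 0.13, and the summed level was 44.2 to 90.3 CPM in AD and 46.3 to 116 CPM in HF + AD. Of 6 fibroblast markers none passed by edgeR, DESeq2 or limma-trend. By edgeR 1 of the 6 had an unadjusted p under 0.05, as did 25.1% of all genes tested. The summed levels of the 6 markers were 3283 to 9883 CPM in AD and 3292 to 10275 CPM in HF + AD. The part of these cells in the result was not tested.

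Of 7 anchoring partners none passed edgeR's test, 0 had an unadjusted p under 0.05, and the median log2 fold change was 0.066. Among all genes tested, 4.43% were called higher and 4.77% lower, and 25.1% had an unadjusted p under 0.05. DESeq2 called 0 of the 7, and limma-trend called 1 (Grip1). Col7a1, encoding the anchoring fibril collagen, had a log2 fold change of 0.25 (edgeR adjusted p = 0.572), Cd151, a tetraspanin that binds laminin-binding integrins, 0.41 (edgeR adjusted p = 0.304) and Fermt1, encoding the integrin activator kindlin-1, 0.066 (edgeR adjusted p = 0.824). Of 5 other plakins, Dsp, encoding the desmosomal plakin desmoplakin, rose (0.75, edgeR adjusted p = 0.0360) and Ppl, encoding periplakin of the cornified envelope, fell (-0.54, edgeR adjusted p = 0.0314). Of 12 tested other integrin chains, Itgb6, an epithelial chain that pairs with αv, fell (-0.96, edgeR adjusted p = 0.0474). Itga10, encoding a collagen-binding chain, had 0 counts in all 5 AD mice and 5 to 24 counts in the HF + AD mice. This was at least 3.38-fold higher against a floor of 3 counts per AD library. Itga10 passed the filter on low counts through the HF + AD mice alone. Its call as higher (edgeR adjusted p = 0.0151) therefore gives no support for a rise, and DESeq2 gave it no adjusted p. Without single libraries the calls among the plakins and among the integrin chains each went down to 0.

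**Figure D5:**
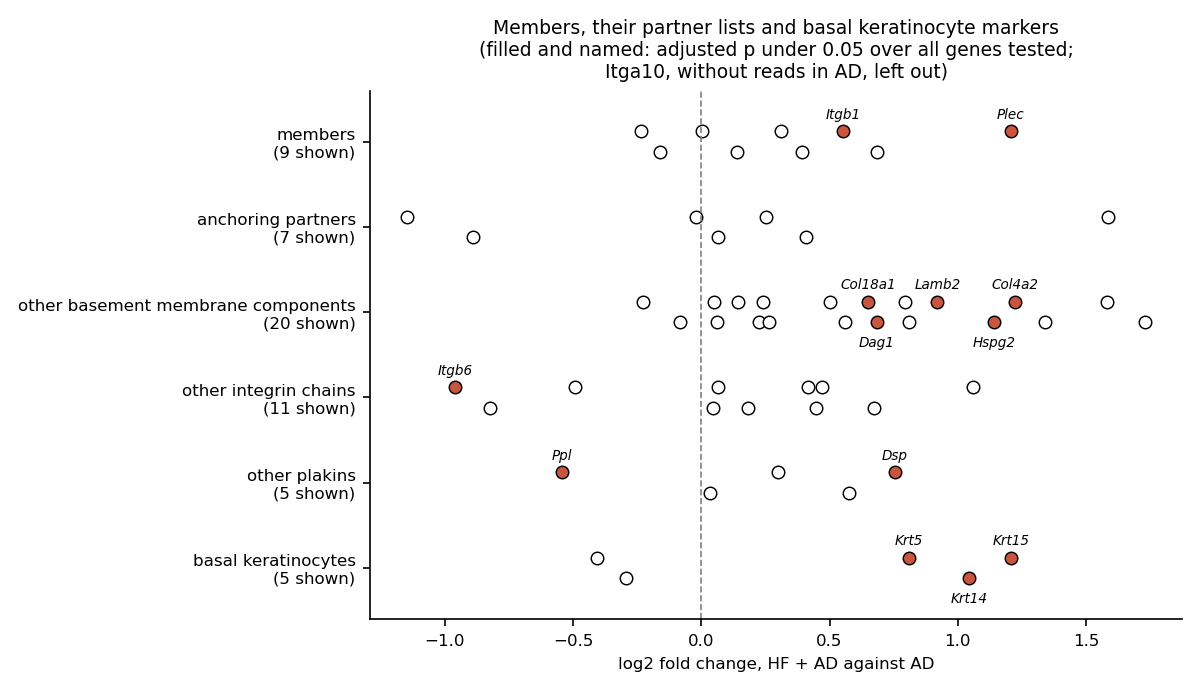
Log2 fold change in HF + AD (n = 7) against AD (n = 5) of the 9 genes (labelled members), of the partner lists and of the basal keratinocyte markers, 1 point per tested gene; filled, named points have an edgeR adjusted p under 0.05 over all genes tested. Itga10, with no read in AD, is left out. The filled points of the basement membrane components and of the basal markers all lie above 0.

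Other cell type markers that moved between the groups are given beside the counts above. Among all genes tested, 4.43% were called higher and 4.77% lower, and 25.1% had an unadjusted p under 0.05. The 5 basal markers summed to 3221 to 4921 CPM in AD and 5855 to 10307 CPM in HF + AD, without overlap, with 3 of 5 called. Krt5 made up most of these sums, with a median of 2812 CPM in AD and 4730 CPM in HF + AD. The estimates of Trp63 (-0.29) and Cdh3 (-0.41) lay below 0 and did not pass. Of 9 hair shaft keratins 3 rose, led by Krt34 (1.33, edgeR adjusted p = 0.00283) and Krt31 (1.14, edgeR adjusted p = 0.00459), with summed levels of 2574 to 5270 CPM in AD and 3975 to 6577 CPM in HF + AD. Of 5 markers of the follicle outer root sheath and stem cells Sox9 rose (1.18, edgeR adjusted p = 0.00662), while the other 4 had estimates below 0 and did not pass. The list median was -0.15, and the sums were 782 to 1092 CPM in AD and 1168 to 1807 CPM in HF + AD. Sox9 itself lay at 264 to 443 CPM in AD and 522 to 1334 CPM in HF + AD. Each of the other 4 had a lower mean CPM in HF + AD. Of 6 skeletal muscle genes Acta1 fell (-0.72, edgeR adjusted p = 0.0481), with sums of 974 to 2036 CPM in AD and 597 to 1570 CPM in HF + AD. In this list 5 estimates lay below 0 and 1 above, 4 genes had an unadjusted edgeR p under 0.05, and the median was -0.70. No gene passed among the markers of suprabasal keratinocytes, hyperproliferative epidermis, smooth muscle and pericytes, Schwann cells, adipocytes, macrophages and dendritic cells, mast cells and T cells by edgeR, with 0 to 2 genes of each list at an unadjusted p under 0.05. DESeq2 called 1 mast cell gene (Cpa3) and limma-trend none. Plec and Itgb1 are also expressed in follicle, muscle and vessel cells, and the part of these cells in their rise was not tested.

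Within the groups, the 9 genes varied together only in part. Over 12 mice, deviations from the group means had a Pearson r between -0.49 (Col17a1 and Plec) and 0.85 (Itgb4 and Itga3) among the 36 pairs, with a median of 0.28 and 28 positive. Of 13191 other genes, those whose deviations were most like the mean of the 9 were Pfkfb3 (r = 0.84, Spearman's rho 0.78), Crem (r = 0.84, rho 0.88), St3gal2 (r = 0.83, rho 0.74), Svep1 (r = 0.83, rho 0.83) and Cdh5 (r = 0.82, rho 0.71). These values describe 12 libraries that share depth and tissue makeup, and no p is given for them.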

How the data were processed

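Total RNA was extracted from skin with TRIzol, and 3′ end libraries were sequenced on an Illumina NextSeq. The deposited tables, 1 per mouse, hold raw counts by gene symbol that the authors made on mm10 with Bowtie2 and bedtools according to the submitters' processing notes, which give no versions; whether strand was used is not given in the sources used here. Per the study's methods, mice were drawn at random for each assay, and data points outside a measurement confidence interval were excluded. Whether this removed any skin RNA library is not stated there. Mice were assigned to groups by their sample titles, and the p-values measure the spread between these 12 libraries. Entries that repeat a symbol (44) were kept apart.

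The fit used edgeR 4.0.16 in R 4.3.3 (TMM, filterByExpr, condition as the only term, quasi-likelihood test, Benjamini-Hochberg adjustment over 14163 entries, threshold 0.05). Levels are log2(CPM + 1) on TMM-scaled totals and were tested by exact permutation (two-sided, 792 assignments of mice), with Python 3.11.15, NumPy 2.4.6, SciPy 1.17.1, pandas 2.3.3 and matplotlib 3.10.9. Positions and transcript GC content were read from the GENCODE M21 annotation of GRCm38. Scripts were tested on simulated data. Alternatives were DESeq2 1.42.0 size factors and Wald test, library totals alone, no filter or at least 10 counts in every mouse, limma 3.58.1 trend, a robust prior, a replicate block, correction for GC content in 20 bins, each mouse left out, and a pseudocount of 0.1. Levels and relative levels were also tested with a Mann-Whitney rank statistic. Relative levels were also taken against all basal keratinocyte markers.

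The 9 genes and the lists were chosen with earlier results of these data known. Named from the lists were Col7a1, Cd151 and Fermt1, up to 4 called genes per direction of each partner list and up to 2 of each marker list by smallest p, Krt5 and Krt14, and the 5 genes most like the 9. Dag1, Trp63, Cdh3, Grip1 and Cpa3 were named beyond that rule, after their values were seen. An item of the anchoring partners is not reported here and is left out of that list's counts. Floors for a count of 0 cover counting error only.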

Additional observations from a re-analysis of the deposited data

Results flagged for a closer look

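In HF + AD mouse 1 the level of Dst relative to Krt5 and Krt14 was -5.52 on the log2 scale, and the next lowest of the 7 mice was -4.75. The gap to that mouse exceeded the limit for a single outlying value in a group of this size. This was 1 of 36 groups of values examined, and chance sets apart about 1 in 20 such groups. Dst itself was counted at 210 CPM in this mouse. Without this mouse the difference between the groups was -0.88, against -1.02 with it.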

How the results depend on the processing

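Of 468 values of single genes under the alternatives, 431 kept their direction and their side of the threshold, 10 passed it newly, 9 (all Itgb1) lost it and 18 changed sign. The threshold of 0.05 was applied to the adjusted p for fold changes and to the unadjusted permutation p for levels and relative levels. Col17a1, near 0 in the edgeR fit, had a log2 fold change of -0.0064 with DESeq2's size factors, -0.0064 with its Wald test, -0.010 with limma-trend, -0.24 with GC correction and -0.058 to 0.081 with single mice left out. Its difference in level was 0.034 with library totals alone and -0.087 to 0.086 with mice left out. Leaving out mice gave -0.38 to 0.022 for the log2 fold change of Lamb3 and -0.38 to 0.053 for Lama3 relative to the keratins.

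Single mice left out gave 1 to 2 called genes of the 9, 639 to 1461 of all genes (1303 in the main analysis), 0 to 1 anchoring partners, 3 to 5 basement membrane components, 0 to 2 integrin chains and 0 to 2 plakins. Library totals alone gave 1 integrin chain, and limma-trend gave 1 (Itga10). DESeq2's Wald test and limma-trend, added for the lists after their values were seen, gave 0 and 1 anchoring partners and 7 and 5 basement membrane components. GC correction ended the call of Krt14 (edgeR adjusted p = 0.0528). Of all calls, 48.1% were higher, 58.9% with library totals alone and 35.2% with GC correction. Mice with the same number did not deviate together (r between -0.11 and 0.072). The sample titles do not say whether the numbers pair mice, and these correlations cannot exclude it. With the replicate block 192 genes and 1 of the 9 (Plec) were called, Itgb1 had an edgeR adjusted p of 0.127, and Col17a1 had a log2 fold change of -0.091. At this depth the lowest count of any of the 9 genes in any mouse was 181 (Itga3).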
